A study of Mus musculus with 6 samples.

Results

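The GTPase regulators followed here were the genes named Dock, Arhgef, Arhgap, Vav, Tiam, Elmo or Prex with a number in the platform's probe annotation. The symbol alone made a gene a member. The only measured value used was the mean level over all 6 arrays, and each gene's probe set was chosen by it as the brightest of its single-gene probe sets, without regard to the groups. They were 76 of the 19938 genes tested, with 33 Arhgap, 23 Arhgef, 10 Dock, 3 Elmo, 3 Vav, 2 Tiam and 2 Prex genes. The families were picked with earlier results of these data known, so the counts below describe them and are not independent evidence. Melan-Ink4a is an immortal melanocyte line from the skin of C57BL/6J mice, and all 6 samples carry the Ink4a-ARF1 null genotype. One group of 3 samples was kept with 10 nM NRG1-b1 (neuregulin 1, a ligand of the receptor ERBB3) for 21 days, and the other 3 were untreated, with no time given. Treated and untreated cells alike grew in RPMI with 10% FBS under 10% CO2, and RNA was taken at 90% confluence. Their medium also held 200 nM TPA, a phorbol ester that activates protein kinase C, and cholera toxin at 200 pM, which raises cyclic AMP. The line is a single cultured line, and the labels do not say whether the 3 samples of a group were separate cultures, so the error behind each p-value is that among these arrays and may be technical.

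RNA from each sample was hybridised to an Affymetrix Mouse Gene 1.0 ST array, and levels are the deposited log2 values, on which 1 unit is a 2-fold difference. Brightness differs between probe sets for reasons other than abundance, so no order of abundance is read from levels of different genes, and the median level of the tested genes (7.17) serves only to sort probe sets into brighter and dimmer. The correlation over genes was 0.996 to 0.997 within a group and 0.981 to 0.986 between groups. The 10 melanocyte markers all had brighter probe sets, with mean levels of 8.54 to 13.88, which goes no further as a check of the label than probe brightness allows. With NRG1, 9 of these 10 fell and 0 rose (limma, 9 at an unadjusted p under 0.05), and their mean per array was 11.39 to 11.40 against 12.00 to 12.03. The part of this shift in the results below was not tested. Of 11 blood cell and 8 keratinocyte markers 0 were called by limma, 0 also at an unadjusted p under 0.05, and their mean levels per array lay at 5.88 to 6.00 and 6.25 to 6.40. Above the median level lay 0 of the 11 and 1 of the 8, and of all genes below it 8.47% were called. Of 8 fibroblast markers 1 rose (Col1a1, 0.86) and 0 fell, with 2 at an unadjusted p under 0.05, at means per array of 6.62 to 6.86.

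The small GTPases RhoA, Rac and CDC42 are switches of the cytoskeleton. Exchange factors load them with GTP and turn them on, and activating proteins (GAPs) speed GTP hydrolysis and turn them off. RhoA drives actomyosin contraction, Rac drives broad sheet-like protrusions, and CDC42 drives filopodia and cell polarity. The DOCK proteins and the Dbl-type factors (ARHGEF, VAV, TIAM and PREX) are separate families of exchange factors, ELMO proteins are partners of some DOCK proteins, and the ARHGAP proteins are GAPs. In pigment cells these switches shape dendrites and migration.

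With NRG1, 21 of the 76 regulator genes rose and 9 fell (limma, adjusted p under 0.05 over all genes), and 46 were not called. The background was 12.3% of all tested genes higher and 8.56% lower, 20.9% in either direction, against 27.6% and 11.8% of the members. Brighter genes are called more often, with 33.3% of all genes above the median level called and 22 of the 41 members there, and 8.47% of all genes below it and 8 of the 35 members there. The median difference was 0.078 for the members and -0.029 for all genes on the log2 scale. Changes of at least 2-fold were 6 rises and 2 falls, against 1.51% and 0.416% of all genes. In 40 members the 3 values with NRG1 lay entirely above or below the 3 untreated ones, which held for 36.7% of all genes. With 3 arrays a group, an exact permutation test of a single gene cannot go below p = 0.1.

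**Figure D1:**
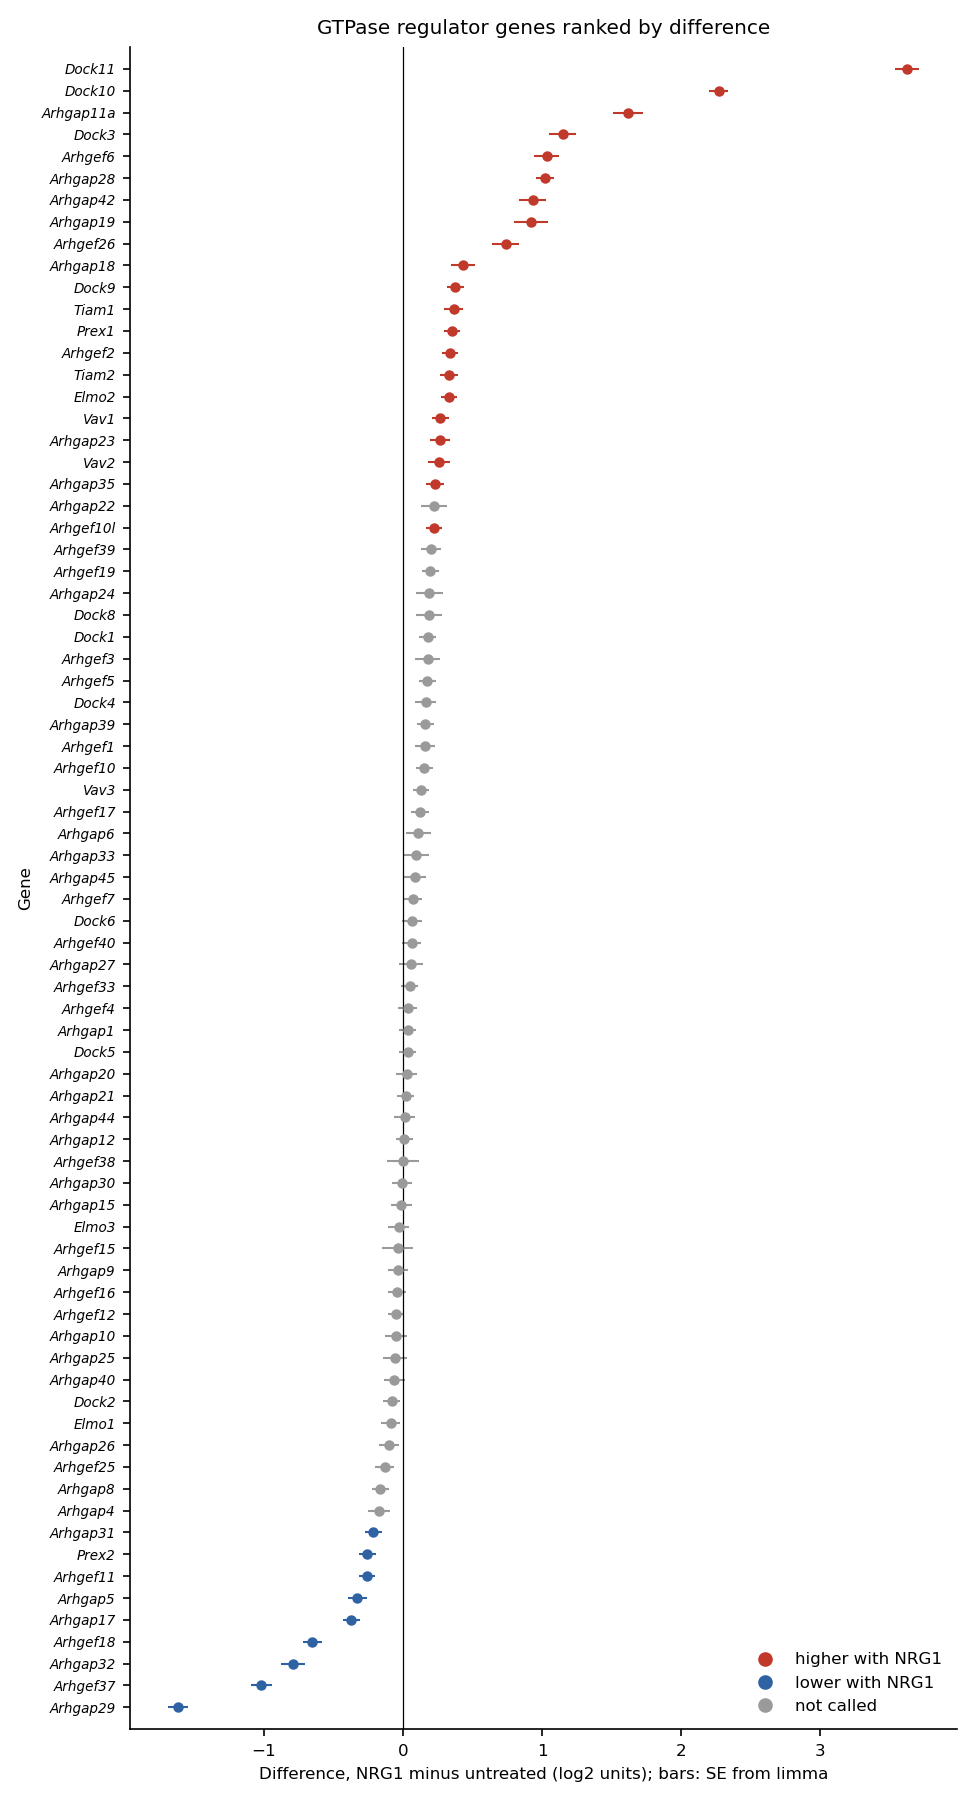
Difference between NRG1-treated and untreated cells for each of the 76 regulator genes, in log2 units, with the standard error from limma as bars. Dock11 (3.63) and Dock10 (2.27) lie at one end and Arhgap29 (-1.62) at the other, and the 46 grey genes were not called.

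The DOCK genes of the CDC42-directed subfamily, Dock9, Dock10 and Dock11, rose, and by sizes that differed widely. Dock11, also known as zizimin 2, was at 9.17, 9.06 and 9.16 with NRG1 and at 5.69, 5.34 and 5.48 without. The groups were separated by more than 3 units on every array, and only the untreated values lay below the median level of 7.17. The rise was 12.4-fold, 3.63 ± 0.088 on the log2 scale (SE; limma, adjusted p = 3.86e-09). Dock10, the relative known for amoeboid movement of melanoma cells, was at 9.81, 9.87 and 9.87 with NRG1 and 7.61, 7.65 and 7.48 without. It rose 4.83-fold (limma, adjusted p = 1.15e-08), with the treated arrays close together and far above the untreated ones. Dock9 was at 7.36, 7.37 and 7.30 against 6.92, 7.02 and 6.95, a smaller rise of 0.38 ± 0.059 without overlap (SE; limma, adjusted p = 0.00113).

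The 250 bases before the annotated start of Dock11 (RefSeq, GRCm38.p6, chrX:35888582-35888831, plus strand) are shown because this gene had the largest rise of the members. Capitals mark the GC box GGGCGG, searched on both strands and found 2 times.
Dock11: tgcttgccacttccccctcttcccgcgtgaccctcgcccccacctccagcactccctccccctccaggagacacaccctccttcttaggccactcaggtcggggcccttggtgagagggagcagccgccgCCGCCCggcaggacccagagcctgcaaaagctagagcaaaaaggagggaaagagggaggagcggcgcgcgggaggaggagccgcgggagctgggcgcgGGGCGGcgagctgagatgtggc
The window is rich in G and C (69.6%, against a median of 52.0% over 27025 genes), and 32.9% of those genes hold a GC box in a window of this length. No CCAAT box was found in it on either strand, which says only that these letters are not in this window.

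The Rac-directed DOCK genes differed among themselves. Dock3, a mainly neuronal Rac exchange factor that also acts in mesenchymal movement of melanoma cells, was at 8.62, 8.84 and 8.76 with NRG1 and 7.70, 7.70 and 7.37 without. The groups did not overlap, and the rise was 2.22-fold (limma, adjusted p = 1.59e-05). Its closest relative Dock4 was not called, at 6.26, 6.39 and 6.37 against 6.03, 6.27 and 6.23 (limma, adjusted p = 0.174). Dock1, the classical Rac exchange factor downstream of integrins, was at 10.37, 10.41 and 10.47 against 10.22, 10.29 and 10.19. Its difference was 0.18, with a 95% interval from 0.044 to 0.316 that covers this single gene and no correction for the number tested (limma, adjusted p = 0.0644). Without untreated replicate 2 it was called (0.21, limma, adjusted p = 0.0427), and over all alternative settings Dock1 was called in 5 of 18. Dock5, of the same subfamily, had overlapping groups (10.25, 10.22 and 10.26 against 10.20, 10.27 and 10.16), and its interval, from -0.099 to 0.166, leaves out any difference of the size seen for Dock3. Dock2, the blood cell member, lay at 5.84 to 5.89 with NRG1 and 5.86 to 6.01 without (limma, adjusted p = 0.433). Dock8, mainly of immune cells, is sorted here as acting on both Rac and CDC42. It was not called either, at 6.51, 6.29 and 6.31 against 6.20, 6.01 and 6.34 (limma, adjusted p = 0.205). The ELMO genes, whose products join DOCK proteins of the Rac group, gave 1 rise, in Elmo2. Elmo2 was at 8.92, 8.90 and 8.82 with NRG1 and 8.54, 8.58 and 8.52 without (0.33 ± 0.060, SE; limma, adjusted p = 0.00273). Elmo1 (-0.088) and Elmo3 (-0.032) were not called.

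**Figure D2:**
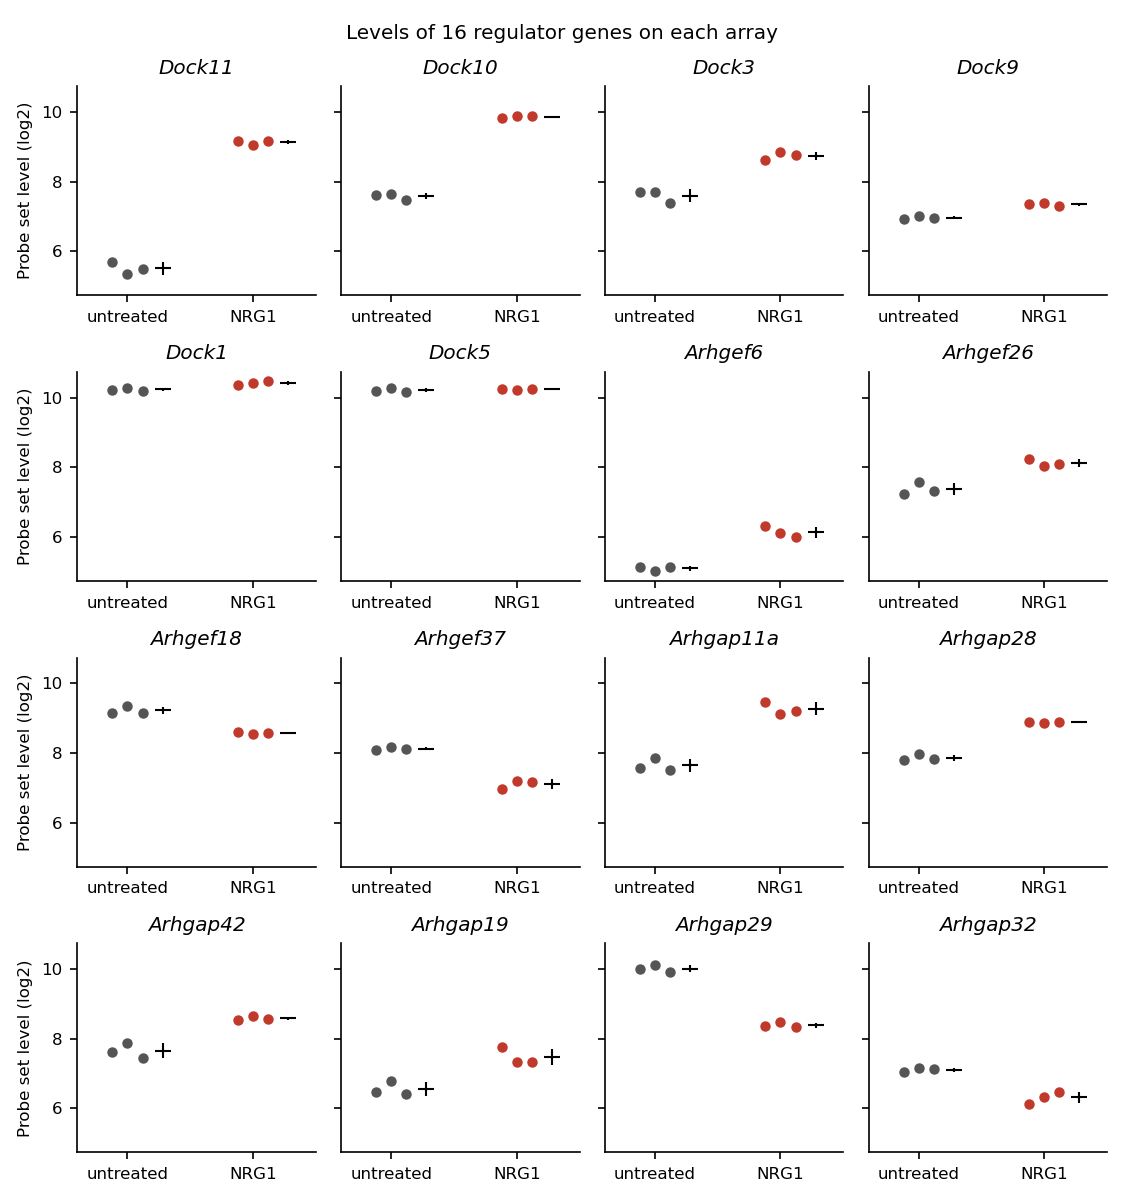
Probe set level (log2) on each of the 6 arrays for 16 regulator genes, grey for untreated and red for NRG1, with a dash for the mean and a bar for the SD of the 3 arrays. Dock11 moved from 5.50 to 9.13, Dock1 and Dock5 stayed above 10 in both groups, and Arhgap29 moved from 10.01 to 8.39.

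Dock6, which acts on Rac and CDC42, depended on the probe set read. The table holds 15 single-gene probe sets for it, more than for any other member, and the brightest gave 9.51, 9.59 and 9.54 with NRG1 and 9.53, 9.34 and 9.57 without, a difference of 0.064 (limma, adjusted p = 0.6). In a fit over all probe sets, 5 of the 15 were higher with NRG1, 0 were lower and 10 were not called, and the differences ran from -0.005 to 0.974 with a median of 0.189. The one that differed most was at 8.05, 8.18 and 8.07 against 7.10, 7.24 and 7.04 (limma, adjusted p = 0.000387). Averaging the 15 probe sets gave 0.235 and a call (limma, adjusted p = 0.0174). Which exons or transcripts these probe sets cover was not analysed here.

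**Figure D3:**
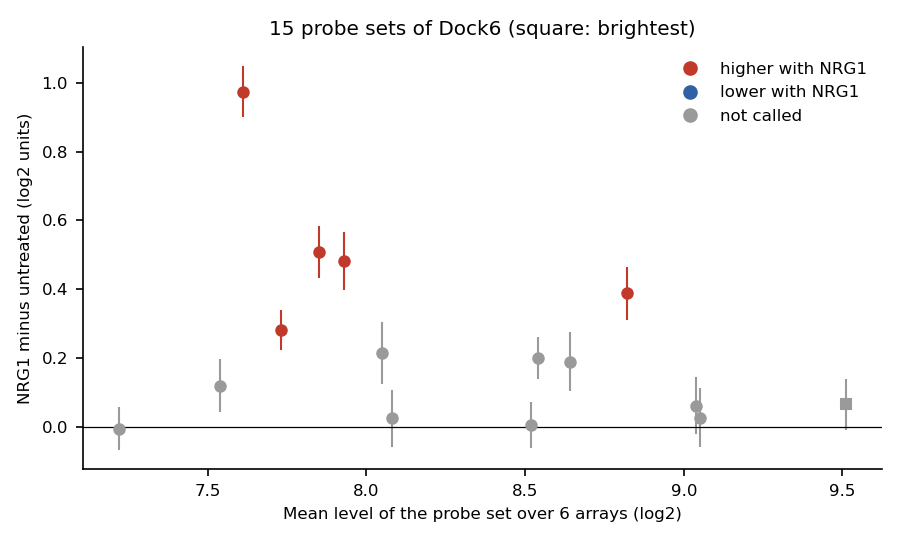
Difference between groups (log2 units, bars: SE from limma over all probe sets) against the mean level of the probe set (log2), for the 15 Dock6 probe sets. The brightest, drawn as a square, lies near 0, and the 5 red ones lie between 0.28 and 0.97.

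The Dbl-type Rac factors moved by less than the large DOCK rises. Prex1, an exchange factor activated by phosphoinositides and G protein subunits that melanoblasts need for migration, was at 9.88, 9.89 and 9.81 with NRG1 and 9.50, 9.52 and 9.50 without. It rose by 0.35 ± 0.058 (SE; limma, adjusted p = 0.00142). Its relative Prex2 went the other way, at 8.51, 8.58 and 8.61 against 8.82, 8.87 and 8.78, a fall of -0.26 (limma, adjusted p = 0.012). Without NRG1 replicate 1 the Prex2 call ended (-0.23, limma, adjusted p = 0.0564). Tiam1 and Tiam2, Rac factors of cell contacts and protrusions, rose by 0.36 and 0.33 (limma, adjusted p = 0.00275 and 0.00523) with no overlap of the groups. Vav1, the blood cell member of a family activated by tyrosine kinases, was at 5.64, 5.66 and 5.68 against 5.42, 5.42 and 5.32, and Vav3 at 5.01, 5.01 and 5.04 against 4.94, 4.84 and 4.89. Vav1 was called (0.27, limma, adjusted p = 0.0084) and Vav3 was not (adjusted p = 0.161). Beside them, 0 of the 11 blood cell markers were called, and 0 of them lay above the median level. Only 8.47% of all genes below that level were called, so a count of 0 in 11 is near that share. Vav2, the widely expressed member, was called at 7.75, 7.74 and 7.82 against 7.47, 7.39 and 7.68 (0.26, limma, adjusted p = 0.0437). That call ended without any 1 of NRG1 replicates 1, 2 and 3 and untreated replicates 1 and 2 (limma, adjusted p from 0.0796 to 0.139).

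Of the 23 Arhgef genes, 4 rose and 3 fell, which is 30.4% called, near the 33.3% of all genes with brighter probe sets, to which 15 of the 23 belong. The largest rise was that of Arhgef6, the alpha-PIX factor for Rac and CDC42 that binds PAK kinases and GIT proteins. It was at 6.31, 6.10 and 5.99 with NRG1 and 5.15, 5.01 and 5.14 without, a 2.05-fold rise (limma, adjusted p = 1.57e-05). Its probe set was a dimmer one, below the median level of 7.17 in both groups. Its widely expressed relative Arhgef7, beta-PIX, was not called (0.071, limma, adjusted p = 0.495). Arhgef26, a RhoG factor known as SGEF, was at 8.25, 8.03 and 8.08 against 7.22, 7.58 and 7.33 and rose 1.67-fold (limma, adjusted p = 0.000324). Among the RhoA-directed factors, Arhgef2 (GEF-H1, released from microtubules) was at 10.13, 10.12 and 10.15 against 9.76, 9.85 and 9.79 and rose (limma, adjusted p = 0.00188). Arhgef10l rose by 0.22 (limma, adjusted p = 0.0216), and that call ended without NRG1 replicate 2, NRG1 replicate 3 or untreated replicate 1 (adjusted p from 0.0755 to 0.0801).

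Falls among the Arhgef genes were led by Arhgef37, a little studied member, at 6.96, 7.21 and 7.16 with NRG1 and 8.09, 8.18 and 8.12 without. This was a 2.03-fold fall (limma, adjusted p = 5.46e-06) with no overlap of the groups. Arhgef18, a RhoA factor of epithelial junctions, was at 8.60, 8.55 and 8.57 against 9.16, 9.35 and 9.16, a change of -0.65 ± 0.069 (SE; limma, adjusted p = 7.45e-05). Arhgef11, the PDZ-RhoGEF that couples G12-type G proteins and plexin-B receptors to RhoA, changed by -0.26 (limma, adjusted p = 0.00911). Its close relative Arhgef12, was at 10.92, 10.99 and 11.01 against 11.02, 11.05 and 11.02. The interval of that difference, from -0.181 to 0.077, leaves out the change of Arhgef11, although the difference between the 2 genes was not tested. Of the members just outside the threshold, Arhgef19 (0.20, limma, adjusted p = 0.0519) was called without NRG1 replicate 2 (adjusted p = 0.0414) or untreated replicate 2 (adjusted p = 0.0478). Arhgef5 (limma, adjusted p = 0.0823) and Arhgef39 (0.0844) were not called by any fit without 1 array. Over all alternative settings that tested them, Arhgef19 was called in 5 of 18, Arhgef5 in 3 of 18 and Arhgef39 in 1 of 17.

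Of the 33 Arhgap genes, 7 rose and 5 fell (limma), which is 36.4% called, and 16 of the 33 lay above the median level. They are given by the GTPase their products mainly act on, and those without a partner assigned here are in neither group. Of 11 GAPs directed mainly at RhoA, 6 rose, 2 fell and 3 were not called, with a median of 0.23. Of 15 directed mainly at Rac or CDC42, 0 rose, 3 fell and 12 were not called, with a median of 0.012 (limma; 5 of the 15 at an unadjusted p under 0.05). For comparison, 20.9% of all genes were called in either direction, with 33.3% of those above the median level and 8.47% of those below it. Of the RhoA group 8 of 11 lay above that level, and of the Rac or CDC42 group 7 of 15, so the groups also differ in brightness. The sorting by GTPase was made from general knowledge, several GAPs act on more than 1 GTPase, and the difference between the groups was not tested.

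**Figure D4:**
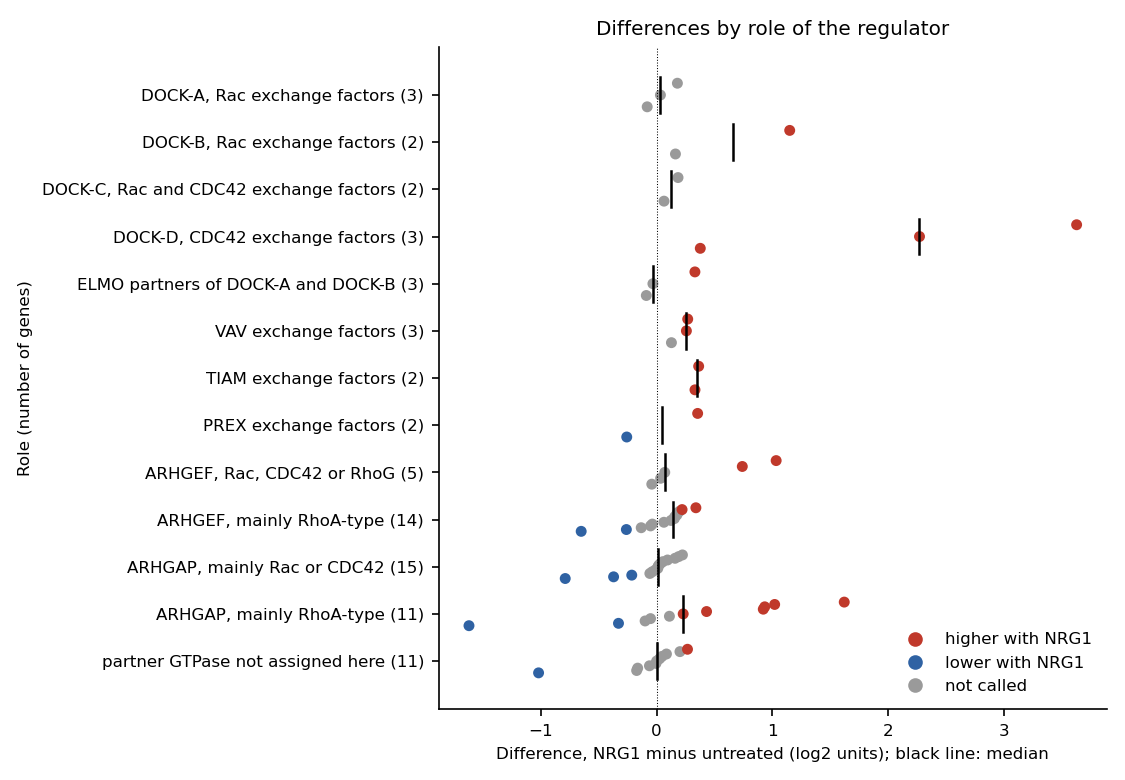
Differences (log2 units, NRG1 minus untreated) of the 76 genes by role, each point a gene and each black line the median of its row. All 3 DOCK-D genes are red and the RhoA-type GAPs span -1.62 to 1.62, while the Rac and CDC42 GAPs lie between -0.79 and 0.22.

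Arhgap29 showed the steepest fall of all members. Its product, a RhoA GAP, works downstream of RAP1 with RASIP1 and RADIL in vessels and is needed for palate closure. It was at 8.37, 8.47 and 8.33 with NRG1 and 10.00, 10.12 and 9.92 without. The fall was 3.07-fold (limma, adjusted p = 1.63e-07), with all treated arrays far below all untreated ones. Of 8 endothelial markers 1 fell (Esam, -0.23) and 0 rose, with 3 at an unadjusted p under 0.05, and their mean per array was 5.89 to 5.92 with NRG1 and 5.97 to 6.10 without. The Esam call ended without NRG1 replicate 1 or 2 or untreated replicate 3 (adjusted p from 0.0602 to 0.116), and the part of these markers in the fall of Arhgap29 was not tested. Arhgap5, one of the p190-type RhoA GAPs, also fell, at 8.86, 8.77 and 8.86 against 9.14, 9.26 and 9.08 (-0.33, limma, adjusted p = 0.00579). Its relative Arhgap35 was called in the opposite direction, at 9.91, 9.98 and 9.89 against 9.72, 9.76 and 9.60 (0.23, limma, adjusted p = 0.0308). The Arhgap35 call ended in every fit without 1 array other than untreated replicate 2, with adjusted p from 0.0612 to 0.108, and after quantile normalization (0.16) or median centring of the arrays.

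Arhgap28 and Arhgap42 rose without overlap. Arhgap28, a RhoA GAP linked to stress fibre loss, was at 8.90, 8.86 and 8.89 with NRG1 and 7.79, 7.97 and 7.82 without, a 2.03-fold rise (limma, adjusted p = 2.13e-06). Arhgap42, the smooth muscle RhoA GAP known as GRAF3, was at 8.54, 8.64 and 8.57 against 7.61, 7.89 and 7.46, a 1.91-fold rise (limma, adjusted p = 7.17e-05). Its second probe set gave 0.82. The related Arhgap26 (GRAF1) and Arhgap10 were not called, at -0.099 and -0.052. Arhgap18 was at 6.97, 7.08 and 7.19 against 6.81, 6.62 and 6.51 and rose by 0.43 ± 0.088 (SE; limma, adjusted p = 0.00562).

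Arhgap11a and Arhgap19, RhoA GAPs that work in dividing cells, rose together. Arhgap11a was at 9.47, 9.11 and 9.22 with NRG1 and 7.57, 7.85 and 7.52 without, a 3.08-fold rise (limma, adjusted p = 2.75e-06). Arhgap19 was at 7.75, 7.34 and 7.34 against 6.47, 6.78 and 6.42, a 1.89-fold rise (limma, adjusted p = 0.000416). Both were highest on NRG1 replicate 1 within the treated group and on untreated replicate 2 within the untreated group, an order shared by 13 of the 76 members (17.1%), Arhgef26, Arhgap28 and Elmo2 among them, and by 15.6% of all genes. Over all genes these arrays deviated from their group means together more than any other pair across groups (r = 0.247). The mean of 11 cell division markers, all of which rose, was highest on the same arrays. It was at 9.21, 8.86 and 8.96 with NRG1 and 7.62, 7.84 and 7.60 without. Single markers differed in this, and the order of Top2a is not given here. Mki67, Bub1, Ccna2, Cdk1, Plk1 and Kif20a had the same order. Within the untreated group Aurkb, Cenpf and Mcm3 were highest on replicate 1 and Birc5 on replicate 3. Outside the members, Ect2, the RhoA exchange factor of cytokinesis, was at 9.59, 9.16 and 9.34 against 7.63, 8.12 and 7.83 (2.84-fold). Racgap1, its GAP partner in the spindle midzone, was at 9.96, 9.55 and 9.48 against 7.97, 8.44 and 8.24 (2.73-fold). The part of a change in dividing cells in the rises of Arhgap11a and Arhgap19 was not tested, and in bulk RNA more cells of a kind and more RNA per cell cannot be told apart.

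**Figure D5:**
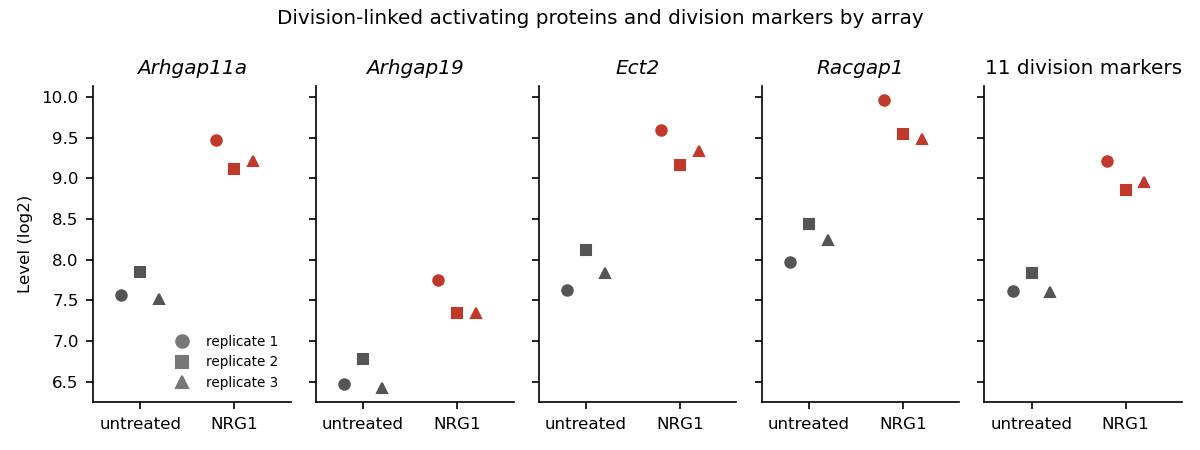
Levels (log2) of Arhgap11a, Arhgap19, Ect2 and Racgap1 and the mean of 11 cell division markers on each array, with a marker shape for each replicate number. In all 5 panels replicate 1 is the highest NRG1 array and replicate 2 the highest untreated array.

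The windows before both GAP genes are printed because their products work in cell division. Each shows the 250 bases before the annotated start (RefSeq, GRCm38.p6, minus strand, chr2:113848662-113848911 for Arhgap11a and chr19:41802085-41802334 for Arhgap19). Capitals mark TTTGAA, the CHR element found in many cell cycle promoters, searched on both strands.
Arhgap11a: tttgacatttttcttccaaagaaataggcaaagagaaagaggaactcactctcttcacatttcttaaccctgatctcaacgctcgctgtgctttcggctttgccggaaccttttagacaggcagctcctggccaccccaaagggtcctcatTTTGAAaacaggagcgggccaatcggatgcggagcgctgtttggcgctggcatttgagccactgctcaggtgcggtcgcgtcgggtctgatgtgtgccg
Arhgap19: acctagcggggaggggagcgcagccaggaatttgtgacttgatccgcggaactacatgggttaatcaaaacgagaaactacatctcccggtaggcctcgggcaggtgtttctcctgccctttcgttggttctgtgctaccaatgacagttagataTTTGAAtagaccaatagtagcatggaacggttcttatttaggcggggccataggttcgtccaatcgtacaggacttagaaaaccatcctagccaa
The element begins 99 bases before the start in Arhgap11a and 95 bases before it in Arhgap19. The CCAAT box was found 1 time in the Arhgap11a window and 3 times in that of Arhgap19. It occurs in 34.5% of all genes, in 13 of 58 members (22.4%) and in 8 of 9 division markers. The 6 letters TTTGAA occur in 16.3% of 27025 genes in a window of this length, in 5 of the 58 members that have one (8.62%) and in 3 of 9 division markers. The other 3 members with TTTGAA were Arhgef3, Dock2 and Tiam1, of which Tiam1 rose. A match of these letters is a description and no evidence of a working site.

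Among the GAPs directed at Rac or CDC42, the 3 falls were those of Arhgap32, Arhgap17 and Arhgap31. Arhgap32, a GAP studied in neurons, was at 6.14, 6.34 and 6.47 with NRG1 and 7.04, 7.16 and 7.13 without, a 1.73-fold fall (limma, adjusted p = 8.96e-05). Arhgap17, the RICH1 GAP of epithelial junctions, was at 8.71, 8.65 and 8.67 against 9.04, 9.13 and 8.97, a change of -0.37 ± 0.063 (SE; limma, adjusted p = 0.00183). Arhgap31, CdGAP, was at 10.66, 10.66 and 10.62 against 10.85, 10.94 and 10.79 (-0.21, limma, adjusted p = 0.0325). That call ended in every fit without 1 array other than untreated replicate 3, with adjusted p from 0.0683 to 0.105. Arhgap22, a Rac GAP of amoeboid melanoma cells, had overlapping groups at 7.20, 7.29 and 7.11 against 7.03, 6.77 and 7.12 (0.22, limma, adjusted p = 0.126). Arhgap1, Arhgap12 and Arhgap21 differed by 0.035, 0.011 and 0.020, with intervals between -0.127 and 0.170. After quantile normalization each of these 3 had the opposite sign, at -0.025, -0.048 and -0.039. The blood cell GAPs Arhgap9, Arhgap15, Arhgap25, Arhgap30 and Arhgap45 were not called, with differences from -0.058 to 0.085. Of these, Arhgap30 and Arhgap45 have no partner assigned here. Arhgap39, at 8.81, 8.87 and 8.85 against 8.73, 8.72 and 8.61, had groups that did not overlap but was not called (limma, adjusted p = 0.0989). Arhgap23, whose partner is not assigned here, was called at 0.27 (limma, adjusted p = 0.0227). That call ended without NRG1 replicate 1 or 2 or untreated replicate 1 or 3 (adjusted p from 0.0582 to 0.0965).

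GTPases that the members act on, and relatives of these, were measured in the same fit. The called ones are described here, with Rhog, and the others are not given. Rhob, a short-lived endosomal relative of RhoA, rose 2.51-fold, from 7.86, 7.92 and 7.82 to 9.20, 9.23 and 9.15 (limma, adjusted p = 1.83e-07). Rhoc rose 1.53-fold and Rac1 by 0.28 (limma, adjusted p = 0.000295 and 0.0119). Rhoj rose by 0.35 (limma, adjusted p = 0.00252), and no fit without 1 array ended that call. Rhoa and Cdc42 passed the test narrowly, at 0.22 each (limma, adjusted p = 0.0408 and 0.0417). The Rhoa call ended without NRG1 replicate 1 or 2 or untreated replicate 1 or 3, and the Cdc42 call in every fit without 1 array other than untreated replicate 2 (adjusted p from 0.06 to 0.149 over these fits). Both also ended when arrays were centred on their medians. Rhog, the target of Arhgef26, was at 9.51, 9.60 and 9.48 with NRG1 and 9.49, 9.53 and 9.51 without, with overlapping groups (limma, adjusted p = 0.863). Rhobtb3 fell by 0.38, Rnd2 by 0.30 and Rhou by 0.24, and the Rhou call ended without NRG1 replicate 1 (-0.21, limma, adjusted p = 0.0729).

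Exchange factors and GAPs with other names were measured too. Counts in these lists stand beside 20.9% called of all genes and 33.3% of those with brighter probe sets. Of 33 other exchange factors (22 of them brighter, 42.4% called) 11 rose and 3 fell, with a median of -0.024 and with Ect2 (2.84-fold), Spata13 (2.21-fold), Akap13 (1.68-fold) and Farp1 (1.61-fold) in front. Spata13 encodes ASEF2, a Rac and CDC42 factor, and was at 8.21, 8.20 and 8.20 with NRG1 and 7.05, 7.11 and 7.03 without. Sos1, which acts on both Ras and Rac, changed by -0.60 (limma, adjusted p = 5.89e-05). Of 27 other GAPs (19 brighter, 33.3% called) 7 rose and 2 fell, led by Depdc1a (1.48), Racgap1 (1.45) and Arap2 (0.80). The falls were those of the Rac GAPs Abr and Bcr, and these calls ended without NRG1 replicate 3 for Abr (adjusted p = 0.0777) and without NRG1 replicate 1 or untreated replicate 1 or 3 for Bcr (adjusted p from 0.0551 to 0.12). The RhoGDI gene Arhgdib and the GTPase chaperone gene Rap1gds1 rose (0.56 and 0.54). The RhoGDI genes Arhgdia and Arhgdig were not among the genes tested. Of 15 effector kinases (11 brighter, 40% called) 6 rose and 0 fell (limma, 6 at an unadjusted p under 0.05), including citron kinase Cit (0.77), which works in cytokinesis, Cdc42bpa (0.50) and the cofilin kinase Limk1 (0.47). Of 42 actin effectors (31 brighter, 38.1% called) 10 rose and 6 fell. Fnbp1l, the TOCA-1 gene whose product links CDC42 to N-WASP, was at 9.70, 9.62 and 9.70 with NRG1 and 7.41, 7.39 and 7.20 without, a 5.07-fold rise (limma, adjusted p = 1.60e-08). The contractile ring gene Anln rose by 1.76 and the formin gene Diaph3 by 1.28, while Fnbp1 fell by 0.39 and the formin-related Daam1 by 0.38.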

How the data were processed

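RNA of 6 samples (3 NRG1, 3 untreated; groups from the titles) was measured on 1 array each. Per the submitters' processing notes the authors used GCOS and RMA, and deposited log2 values; neither versions nor settings were stated in what was used here. An array has no read depth, and 3 arrays per group limit the precision (median SE 0.0708). Names came from the platform's table, in which 21789 of 35557 probe sets had 1 gene, 1621 several and 12147 no name here. The brightest probe set of each gene was kept (999 genes had more than 1), with no filter on level and no pseudocount. All 19938 genes were fitted with limma 3.58.1 in R 4.3.3 (lmFit, eBayes, 2 groups, 2-sided), with Benjamini-Hochberg adjustment over all of them and a threshold of 0.05. "Called", "rose" and "fell" refer to it. The fit was run on simulated data with independent noise in each value, a check of the code that cannot address array or culture effects.

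Members, roles, gene lists, tests and alternatives were chosen with earlier results of these data known. Named were all Dock, Elmo, Vav, Tiam and Prex genes, called Arhgef and Arhgap genes with a change of at least 0.5, the 3 brightest and the least changed of these, members near the threshold or with discordant probe sets, and up to 4 called genes per list and direction, not all of them printed; the counts of 1 list are not reported here. Other called members, uncalled relatives, blood cell members, Rhoa, Cdc42, Rhog, Rasip1 and Radil were added after their values were seen. Alternatives were other normalizations, filters, probe set and naming rules, variance models, a replicate block, leaving out each array, and a minimum change. Another background correction needs probe-level signals and was not run. Promoter windows are RefSeq's (58 members matched, first-listed start).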

Additional observations from a re-analysis of the deposited data

How the results depend on the processing

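Over 18 alternative settings the count of members that rose ran from 9 to 27 and of those that fell from 4 to 10. When limma's treat asked for a change above 1.2-fold, 9 rose and 4 fell, and these 13 were called under every alternative that tested them. Apart from treat, 24 of the 30 called members kept their call in every alternative that tested them, and none changed sign. The 6 others were Arhgap23, Arhgap31, Arhgap35, Arhgef10l, Prex2 and Vav2. Without 1 array, 17 to 22 rose and 7 to 9 fell. With the replicate number as a block 20 rose and 8 fell, but same-numbered arrays did not deviate together (r = -0.095, -0.164 and 0.074 over all genes), so the numbers are not taken as pairs. The highest r across groups was 0.247, for NRG1 replicate 1 with untreated replicate 2. Over all genes, the split between rises and falls went from 2461 and 1707 to 2257 and 2396 with quantile normalization, and to 3207 and 2881 with array weights. Among the members the split was 20 and 10 with quantile normalization.

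Alternatives were run for all 76 members. Signs turned in 17 members, all uncalled, and in the uncalled Rasip1 and Rhog. Quantile normalization gave -0.0253 for Arhgap1, -0.0476 for Arhgap12, 0.0344 for Arhgap15, -0.0389 for Arhgap21, 0.000867 for Arhgef15, -0.0395 for Dock5, -0.0076 for Dock6 and -0.0579 for Rhog. Median centring gave -0.00112 for Arhgap12 and -0.0112 for Arhgef38. Array weights gave -0.0204 for Arhgap21, 0.0385 for Arhgap25, -0.0156 for Arhgap27, -0.0502 for Arhgap44, 0.0091 for Arhgap9, -0.00435 for Arhgef38 and 0.0227 for Elmo3. Averaged probe sets gave -0.00415 for Arhgap27. Without 1 array, values ran for Arhgap10 from -0.0889 to 0.0127, Arhgap12 from -0.0276 to 0.0403, Arhgap15 from -0.058 to 0.0672, Arhgap20 from -0.0372 to 0.0949, Arhgap21 from -0.0129 to 0.0516, Arhgap25 from -0.129 to 0.0218, Arhgap27 from -0.0127 to 0.119, Arhgap30 from -0.0545 to 0.0679 and Arhgap44 from -0.0634 to 0.0517. They ran for Arhgap9 from -0.0757 to 0.0327, Arhgef15 from -0.126 to 0.0806, Arhgef38 from -0.136 to 0.147, Arhgef4 from -0.0182 to 0.0665, Dock6 from -0.00408 to 0.11, Elmo3 from -0.0725 to 0.0261, Rasip1 from -0.165 to 0.076 and Rhog from -0.0155 to 0.0464. The cause was not tested. Members whose sign turned lay on both sides of the median level, with Dock5 at a mean of 10.23 and Arhgap15 at 5.03. Apart from this, differences of members below the median level may be understated by signal near background, which was not measured here.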

Other observations

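Genes whose products recruit the regulators were not described above. Of 23 adaptors and upstream partners, 9 rose and 3 fell (52.2% called). Of the 23, 21 had probe sets brighter than the median gene, and 33.3% of all such genes were called, against 20.9% of all genes. Nck2, an adaptor that joins tyrosine kinases to the actin machinery, rose by 0.54 (limma, adjusted p = 0.000103), whereas Nck1 fell by 0.37 (adjusted p = 0.00188). The plexin receptor genes Plxnb1 and Plxnb2, whose products bind ARHGEF11 and ARHGEF12, rose by 0.42 and 0.41 (limma, adjusted p = 0.000499 and 0.00135). Lrch1, which encodes a partner of DOCK proteins, was at 9.10, 9.11 and 9.21 with NRG1 and 9.91, 9.92 and 9.85 without (-0.75, limma, adjusted p = 1.19e-05). Rasip1 and Radil, the partners of Arhgap29, were not called, at -0.035 and 0.11.

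In the windows before the start, the M-box core CATGTG, to which MITF can bind, occurred in 7 of 58 members (12.1%) and in 12.2% of 27025 genes. The AP-1 site TGANTCA occurred in 5 of 58 members (8.62%) and 6.87% of genes, and the GC box in 35 of 58 (60.3%) and 32.9%. Median G and C content was 59.4% in the members and 52.0% in all genes.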
